A study of Mus musculus with 29 samples.

Results

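The 10 genes described here are Fgf13, Chn1, Ppm1e, Nkain1, Khdrbs3, Ugt8a, Cnnm1, Hs6st2, Mpped2 and Pik3c2a. They were chosen from these same libraries because their RNA was low in Ezh2 +/+ progenitors and higher in Ezh2 -/- progenitors, and they are 10 of the 13928 genes tested and of the 18834 genes in the count files. The working name of the set was non-blood genes that are derepressed without Ezh2. Most of these genes are best known from neurons, glia or developing tissue, but Pik3c2a is broadly expressed, and the RNA data cannot show in which tissues a gene is normally used.

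EZH2 is the catalytic subunit of Polycomb repressive complex 2 (PRC2), which methylates lysine 27 of histone H3 and keeps tissue-specific and developmental genes silent in cells that do not use them. Targets of PRC2 often have start sites rich in CG dinucleotides. Megakaryocyte-erythrocyte progenitors (MEPs) are the bone marrow cells from which platelets and red cells form. V617F is a change in the kinase JAK2 that keeps it active and is common in myeloproliferative neoplasms.

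RNA was sequenced from sorted MEPs of mice, 29 libraries in 6 groups. All mice carried SclCre (ScleCre in some labels), a Cre driven by regulatory sequence of the blood and endothelial gene Scl. The groups with JAK2V617F were Ezh2 -/- (n = 6, all female), Ezh2 +/- (n = 6, all female) and Ezh2 +/+ (n = 4, of which 1 male). Those without it were Ezh2 -/- (n = 4, of which 1 male), Ezh2 +/- (n = 4, of which 2 male) and Ezh2 +/+ (n = 5, of which 2 male, called controls here). Sources used here do not state the ages, the sorting gates or the deleted part of Ezh2. Because the labels number replicates without naming animals, a p-value reflects only how far these libraries spread, which may be technical.

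Libraries held 31.6 M to 59.4 M counts (median 44.6 M). Levels are given as CPM, counts per 1 M library counts, on library sizes scaled by TMM, edgeR's normalization, and 3 counts, taken as the floor of detection, correspond to 0.0496 to 0.0946 CPM. Ezh2 RNA was 54.97 ± 3.10 CPM in Ezh2 -/- and 174 ± 23.2 CPM in Ezh2 +/- against 289 ± 31.2 CPM in Ezh2 +/+ with V617F (SD), and 73.4 ± 5.89 and 192 ± 4.28 against 303 ± 20 CPM without it. The gene counts cannot show how much of the Ezh2 -/- value comes from a shortened transcript. The lowest level in any library was 152 CPM for the erythroid factor gene Klf1 and, in another library, 23.8 CPM for the megakaryocyte gene Itga2b. Summed megakaryocyte and platelet markers (18 of 18 genes detected) varied within and between groups: 881 to 1369 CPM in V617F Ezh2 -/-, 221 to 1603 CPM in V617F Ezh2 +/- and 354 to 1523 CPM in V617F Ezh2 +/+ libraries, and 146 to 200.3, 184 to 474 and 171 to 549.7 CPM in the matching groups without V617F. The part of this unevenness in the results below was not tested. In bulk RNA, fewer cells of a type and less RNA per cell cannot be told apart.

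All 10 genes passed the filter on low counts. For Fgf13, Chn1 and Mpped2 this came through groups other than the controls, where they had 81, 49 and 39 counts in all over 5 libraries. Per base of the deposited gene length, the mean control level was lowest for Chn1, at 0.0410 RPKM (CPM per kilobase), above 25.6% of all genes, and highest for Khdrbs3, at 3.39 RPKM, above 53.0% of genes. Khdrbs3 thus lay above the middle of the ranked genes in controls. In Ezh2 -/- libraries without V617F the same scale put Chn1 at 0.998 RPKM, above 44.3% of genes, and Khdrbs3 at 25.3 RPKM, above 80.6%.

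The start sites of these genes are shown because CG-rich promoters are a known feature of PRC2 targets. RefSeq promoter windows of build GRCm38.p6, 250 bases before to 50 bases after an annotated start, were found for 9 of the 10 genes, all but Khdrbs3, and numbered 16 because several genes have more than 1 start. The dinucleotide CG, which reads the same on both strands, was counted in each. Nkain1 had the most and is shown with Mpped2, whose RNA had the largest V617F effect of the 10 genes in Ezh2 +/+ MEPs, and with 2 starts of Fgf13 that differ widely. Capitals mark each CG.

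Nkain1 (chr4:130573987-130574286, minus strand, 44 CG): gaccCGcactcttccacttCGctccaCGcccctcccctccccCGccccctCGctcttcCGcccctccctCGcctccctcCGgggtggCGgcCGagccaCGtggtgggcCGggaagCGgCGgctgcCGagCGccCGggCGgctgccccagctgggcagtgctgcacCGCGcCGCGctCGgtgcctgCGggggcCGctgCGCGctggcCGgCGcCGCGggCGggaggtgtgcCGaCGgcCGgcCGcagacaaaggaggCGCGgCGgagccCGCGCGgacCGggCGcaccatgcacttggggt
Mpped2 (chr2:106693299-106693598, plus strand, 28 CG): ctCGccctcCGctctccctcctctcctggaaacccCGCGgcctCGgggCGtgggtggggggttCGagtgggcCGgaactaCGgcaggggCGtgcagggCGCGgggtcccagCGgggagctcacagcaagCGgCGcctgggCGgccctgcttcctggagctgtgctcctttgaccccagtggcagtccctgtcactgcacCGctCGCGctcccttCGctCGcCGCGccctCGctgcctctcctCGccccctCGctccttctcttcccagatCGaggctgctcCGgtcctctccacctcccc
Fgf13, CG-rich start (chrX:59567299-59567598, minus strand, 40 CG): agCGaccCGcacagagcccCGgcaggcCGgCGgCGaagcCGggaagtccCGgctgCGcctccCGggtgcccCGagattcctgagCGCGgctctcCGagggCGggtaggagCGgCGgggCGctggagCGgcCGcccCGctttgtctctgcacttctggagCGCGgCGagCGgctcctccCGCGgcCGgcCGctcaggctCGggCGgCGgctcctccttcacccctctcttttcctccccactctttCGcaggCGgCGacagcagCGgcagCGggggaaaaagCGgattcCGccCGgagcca
Fgf13, CG-poor start (chrX:59585523-59585822, minus strand, 3 CG): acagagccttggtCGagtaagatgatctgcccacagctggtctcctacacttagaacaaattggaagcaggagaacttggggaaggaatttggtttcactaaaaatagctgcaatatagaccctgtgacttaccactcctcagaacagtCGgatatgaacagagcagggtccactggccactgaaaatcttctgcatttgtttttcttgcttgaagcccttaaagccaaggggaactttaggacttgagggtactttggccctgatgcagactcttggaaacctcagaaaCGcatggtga

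Of all 32851 promoter windows, 2.2% had at least the 44 CG of Nkain1. Chn1 had 43 CG at its CG-rich start (2.6% of windows had at least as many) and 5 at another. Ugt8a had 40 CG at its start (3.9% had at least as many) and Ppm1e 36 (6.2%). Hs6st2 had 33 CG and 12 at its 2 starts, Pik3c2a had 31, and Cnnm1 had 21, a number that 24.8% of all windows reached. Among the windows of tested genes these shares were higher: 4.1% for Nkain1, 4.7% for Chn1, 7.1% for Ugt8a, 11.5% for Ppm1e and 47.0% for Cnnm1. The median over genes of the richest window was 36 CG for the 9 genes, 21 for tested genes and 8 for all genes. The 9 genes have 16 windows in all and the 10952 tested genes with a window have 13896, and a gene with more windows has more chances of a rich one. These counts describe the annotation, and gene-level counts do not show which start was used.

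**Figure D1:**
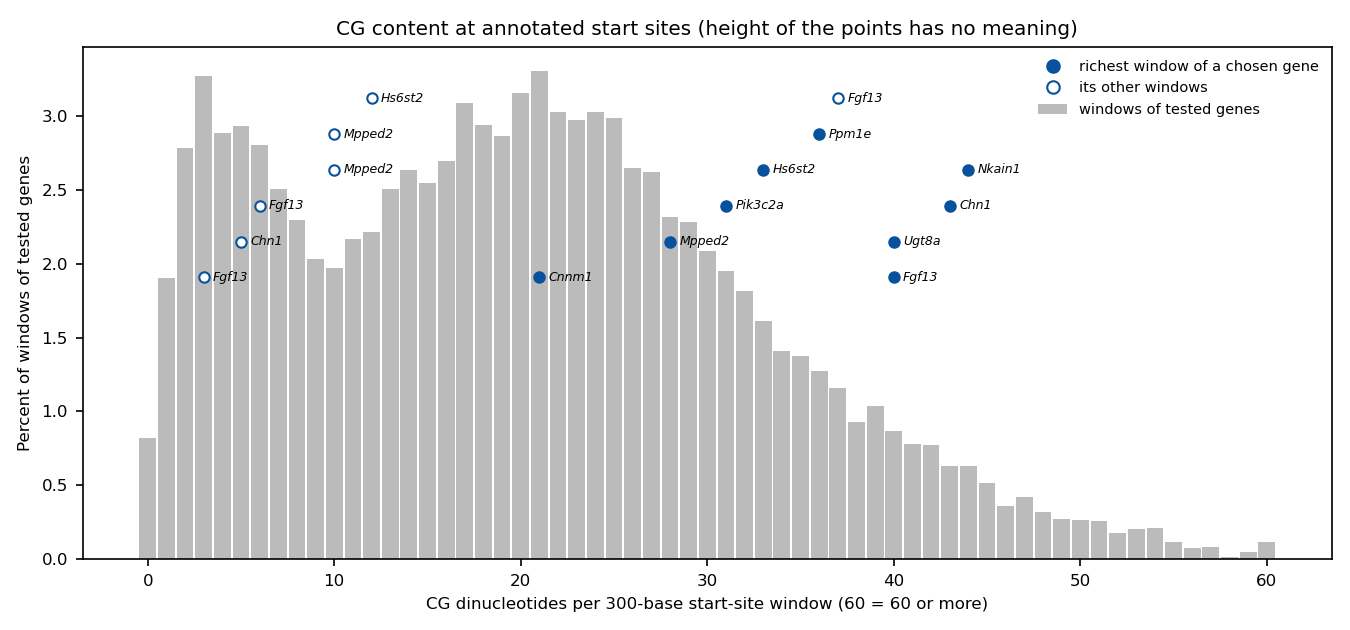
CG dinucleotides in 300-base windows at annotated start sites (x axis), as the percent of windows of tested genes (grey bars, y axis), with the 16 windows of 9 of the genes marked (filled, the richest window of a gene). The richest windows ran from 21 CG for Cnnm1 to 44 for Nkain1, while 6 other windows of Chn1, Fgf13, Hs6st2 and Mpped2 held 3 to 12 and another of Fgf13 held 37.

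Values by genotype follow, grouped by what the proteins do. Because the choice of genes used Ezh2 -/- against Ezh2 +/+, fold changes of that comparison are descriptions and carry no test. In both backgrounds all 10 genes had every Ezh2 -/- library above every Ezh2 +/+ library, which the choice of genes made likely. Such separation occurred in 10% of all tested genes with V617F and 11.5% without it. Adjusted p under 0.05 for a higher level in that comparison was reached by 13% of all genes with V617F and by 11.5% without it.

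Fgf13 encodes an intracellular FGF homologous factor that binds voltage-gated sodium channels and microtubules in neurons. With V617F it measured 6.45 to 9.50 (median 7.77) CPM in Ezh2 -/-, 0.197 to 0.499 (median 0.309) in Ezh2 +/- and 0.104, 0.145, 0.109 and 0.160 CPM in Ezh2 +/+ libraries. Without V617F it measured 10.2, 8.08, 10.9 and 12.2 CPM in Ezh2 -/-, 0.179, 0.339, 0.184 and 0.351 in Ezh2 +/- and 0.183, 0.113, 0.477, 0.439 and 0.463 CPM in controls. The lowest Ezh2 -/- library stood far above every library with a copy of Ezh2, and the libraries with 1 copy lay among or just above those with 2. The log2 fold change of Ezh2 -/- over Ezh2 +/+ was 5.74 ± 0.33 with V617F and 4.95 ± 0.28 without it (SE). Among the controls, the 2 male libraries held 0.113 and 0.183 CPM and the 3 females 0.439 to 0.477 CPM, and Fgf13 lies on the X chromosome. The Ezh2 +/- males were also below the females (0.179 and 0.184 against 0.339 and 0.351 CPM), whereas the 1 Ezh2 -/- male was the highest of its group (12.2 against 8.08 to 10.9 CPM) and the 1 V617F Ezh2 +/+ male lay among the females (0.109 against 0.104 to 0.160 CPM).

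Chn1 encodes alpha-chimaerin, a GTPase-activating protein for Rac that acts in axon guidance. It measured 5.30 to 7.06 (median 6.21) CPM in V617F Ezh2 -/-, 0.277 to 0.620 (median 0.429) in V617F Ezh2 +/- and 0.570, 0.290, 0.370 and 0.228 CPM in V617F Ezh2 +/+ libraries. Without V617F the values were 4.52, 5.13, 5.27 and 4.77 CPM in Ezh2 -/-, 0.179, 0.272, 0.210 and 0.351 in Ezh2 +/- and 0.131, 0.227, 0.165, 0.176 and 0.314 CPM in controls. All libraries that kept Ezh2 stayed under 1 CPM and all that lacked it were over 4 CPM. Its log2 fold change was 4.03 ± 0.26 with V617F and 4.53 ± 0.25 without it.

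Ppm1e encodes a serine/threonine phosphatase of the PPM family that acts on calmodulin-dependent kinases and on PAK in brain. It measured 23.4 to 26.9 (median 24.5) CPM in V617F Ezh2 -/-, 7.15 to 9.34 (median 8.62) in V617F Ezh2 +/- and 4.95, 5.71, 5.51 and 6.18 CPM in V617F Ezh2 +/+ libraries. In the absence of V617F it measured 28.3, 27.01, 24.5 and 21.8 CPM in Ezh2 -/-, 7.14, 7.42, 6.81 and 10.2 in Ezh2 +/- and 4.82, 4.83, 7.59, 6.99 and 6.17 CPM in controls. This was the smallest log2 fold change of the set without V617F (2.03 ± 0.10), and it was 2.06 ± 0.11 with V617F. With V617F the Ezh2 +/- libraries formed a step of their own above Ezh2 +/+. The gene overlaps Trim37 in the annotation, and without a stated strand setting reads of the pair may not be told apart. Trim37 itself measured 175 ± 11.5 CPM in V617F Ezh2 -/- against 199.8 ± 17.9 CPM in V617F Ezh2 +/+, and 208 ± 11.7 CPM in Ezh2 -/- against 196 ± 18.1 CPM in controls. Its log2 fold change of -0.17 ± 0.08 with V617F (edgeR adjusted p = 0.0982) passed without V617F Ezh2 -/- replicate 6 or V617F Ezh2 +/+ replicate 1 (adjusted p 0.0296 to 0.35 over 18 alternatives), and it was 0.10 ± 0.08 without V617F. Chn1 overlaps the antisense gene Chn1os3, with the same limit.

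Nkain1 encodes a membrane protein that binds the beta subunit of the sodium pump. It measured 4.66 to 6.02 (median 5.02) CPM in V617F Ezh2 -/-, 0.832 to 1.26 (median 1.15) in V617F Ezh2 +/- and 0.803, 0.871, 0.980 and 1.16 CPM in V617F Ezh2 +/+ libraries. Without V617F the values were 7.79, 7.81, 8.48 and 10.8 CPM in Ezh2 -/-, 1.10, 0.769, 1.31 and 0.839 in Ezh2 +/- and 1.36, 1.75, 1.72, 1.02 and 0.876 CPM in controls. Every library without Ezh2 was above every library with it, and the V617F Ezh2 -/- libraries were all below the Ezh2 -/- libraries without V617F. On the log2 scale the change over Ezh2 +/+ was 2.54 ± 0.18 with V617F and 2.74 ± 0.17 without it.

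Khdrbs3 encodes the STAR-family RNA-binding protein SLM2, a regulator of splicing in brain. It measured 32.02 to 43.6 (median 36.7) CPM in V617F Ezh2 -/-, 8.51 to 13.8 (median 9.30) in V617F Ezh2 +/- and 11.6, 8.20, 7.66 and 8.53 CPM in V617F Ezh2 +/+ libraries. Without the mutation it measured 47.6, 40.6, 52.5 and 50.7 CPM in Ezh2 -/-, 4.49, 8.44, 4.71 and 7.71 in Ezh2 +/- and 4.61, 5.51, 6.57, 7.05 and 8.35 CPM in controls. Khdrbs3 was the most abundant of the 10 genes per kilobase in every group. Its log2 fold change was 1.94 ± 0.15 with V617F and 2.87 ± 0.15 without it.

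Ugt8a encodes the galactosyltransferase that makes galactosylceramide, a main lipid of myelin. It measured 19.9 to 24.6 (median 22.5) CPM in V617F Ezh2 -/-, 3.47 to 7.62 (median 5.93) in V617F Ezh2 +/- and 7.05, 6.07, 8.36 and 7.41 CPM in V617F Ezh2 +/+ libraries. The groups without V617F measured 28.4, 29.1, 36.8 and 30.8 CPM in Ezh2 -/-, 3.81, 4.07, 5.86 and 2.48 in Ezh2 +/- and 3.62, 3.74, 4.03, 4.18 and 2.76 CPM in controls. With V617F the Ezh2 +/+ libraries were all higher, and the Ezh2 -/- libraries all lower, than their counterparts without it, so the groups stood closer together. The log2 fold change of Ezh2 -/- over Ezh2 +/+ was 1.68 ± 0.19 with V617F and 3.13 ± 0.20 without it.

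Hs6st2 encodes an enzyme that adds sulfate to the 6-O position of heparan sulfate, a sugar chain that binds growth factors. It measured 26.1 to 48.6 (median 35.7) CPM in V617F Ezh2 -/-, 4.80 to 12.5 (median 8.75) in V617F Ezh2 +/- and 8.01, 5.75, 8.43 and 8.94 CPM in V617F Ezh2 +/+ libraries. Without V617F it measured 24.7, 20.7, 30.9 and 24.5 CPM in Ezh2 -/-, 2.17, 2.06, 1.45 and 1.41 in Ezh2 +/- and 1.73, 2.22, 2.51, 2.96 and 1.60 CPM in controls. It formed a ladder, with V617F Ezh2 -/- at the top and Ezh2 -/- without V617F overlapping its lower end. The V617F libraries that kept Ezh2 lay in between, and those that kept Ezh2 without V617F were lowest. Its log2 fold change of Ezh2 -/- over Ezh2 +/+ was 2.20 ± 0.25 with V617F and 3.52 ± 0.25 without it.

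Cnnm1 encodes a member of the CNNM family, which is linked to magnesium transport. It measured 15.6 to 24.9 (median 17.3) CPM in V617F Ezh2 -/-, 1.64 to 5.25 (median 3.06) in V617F Ezh2 +/- and 3.42, 2.35, 3.64 and 2.74 CPM in V617F Ezh2 +/+ libraries. In the absence of V617F it measured 26.99, 20.3, 22.2 and 24.3 CPM in Ezh2 -/-, 1.83, 1.49, 2.84 and 1.29 in Ezh2 +/- and 2.67, 1.52, 1.5, 2.25 and 1.11 CPM in controls. The Ezh2 -/- libraries stood apart from all others, and the V617F Ezh2 +/- libraries spread to either side of the Ezh2 +/+ ones. On the log2 scale the change was 2.70 ± 0.29 with V617F and 3.79 ± 0.29 without it.

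Mpped2 encodes a metallophosphoesterase known from fetal brain. It measured 5.01 to 8.23 (median 5.94) CPM in V617F Ezh2 -/-, 0.666 to 1.36 (median 0.941) in V617F Ezh2 +/- and 1.40, 0.943, 0.980 and 1.12 CPM in V617F Ezh2 +/+ libraries. Without the mutation it measured 5.72, 3.98, 5.42 and 6.46 CPM in Ezh2 -/-, 0.0997, 0.226, 0.263 and 0.351 in Ezh2 +/- and 0.210, 0.113, 0.128, 0.117 and 0.248 CPM in controls. Libraries with both V617F and a copy of Ezh2 lay between the others. They were above every library that kept Ezh2 without V617F and below every library without Ezh2. The log2 fold change of Ezh2 -/- over Ezh2 +/+ was 2.50 ± 0.26 with V617F and 4.99 ± 0.29 without it.

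Pik3c2a encodes a class II phosphoinositide 3-kinase that acts in endocytosis and vesicle traffic. It measured 17.8 to 20.4 (median 19.4) CPM in V617F Ezh2 -/-, 1.77 to 6.60 (median 3.32) in V617F Ezh2 +/- and 6.12, 3.70, 1.5 and 2.33 CPM in V617F Ezh2 +/+ libraries. The groups without V617F measured 20.9, 21.3, 22.2 and 21.6 CPM in Ezh2 -/-, 1.53, 3.14, 1.18 and 4.12 in Ezh2 +/- and 2.23, 1.47, 2.20, 2.02 and 4.43 CPM in controls. Libraries that kept Ezh2 varied several fold among themselves, whereas those without Ezh2 lay in a narrow band. Its log2 fold change was 2.38 ± 0.34 with V617F and 3.07 ± 0.34 without it, with the largest SE of the set in both backgrounds.

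**Figure D2:**
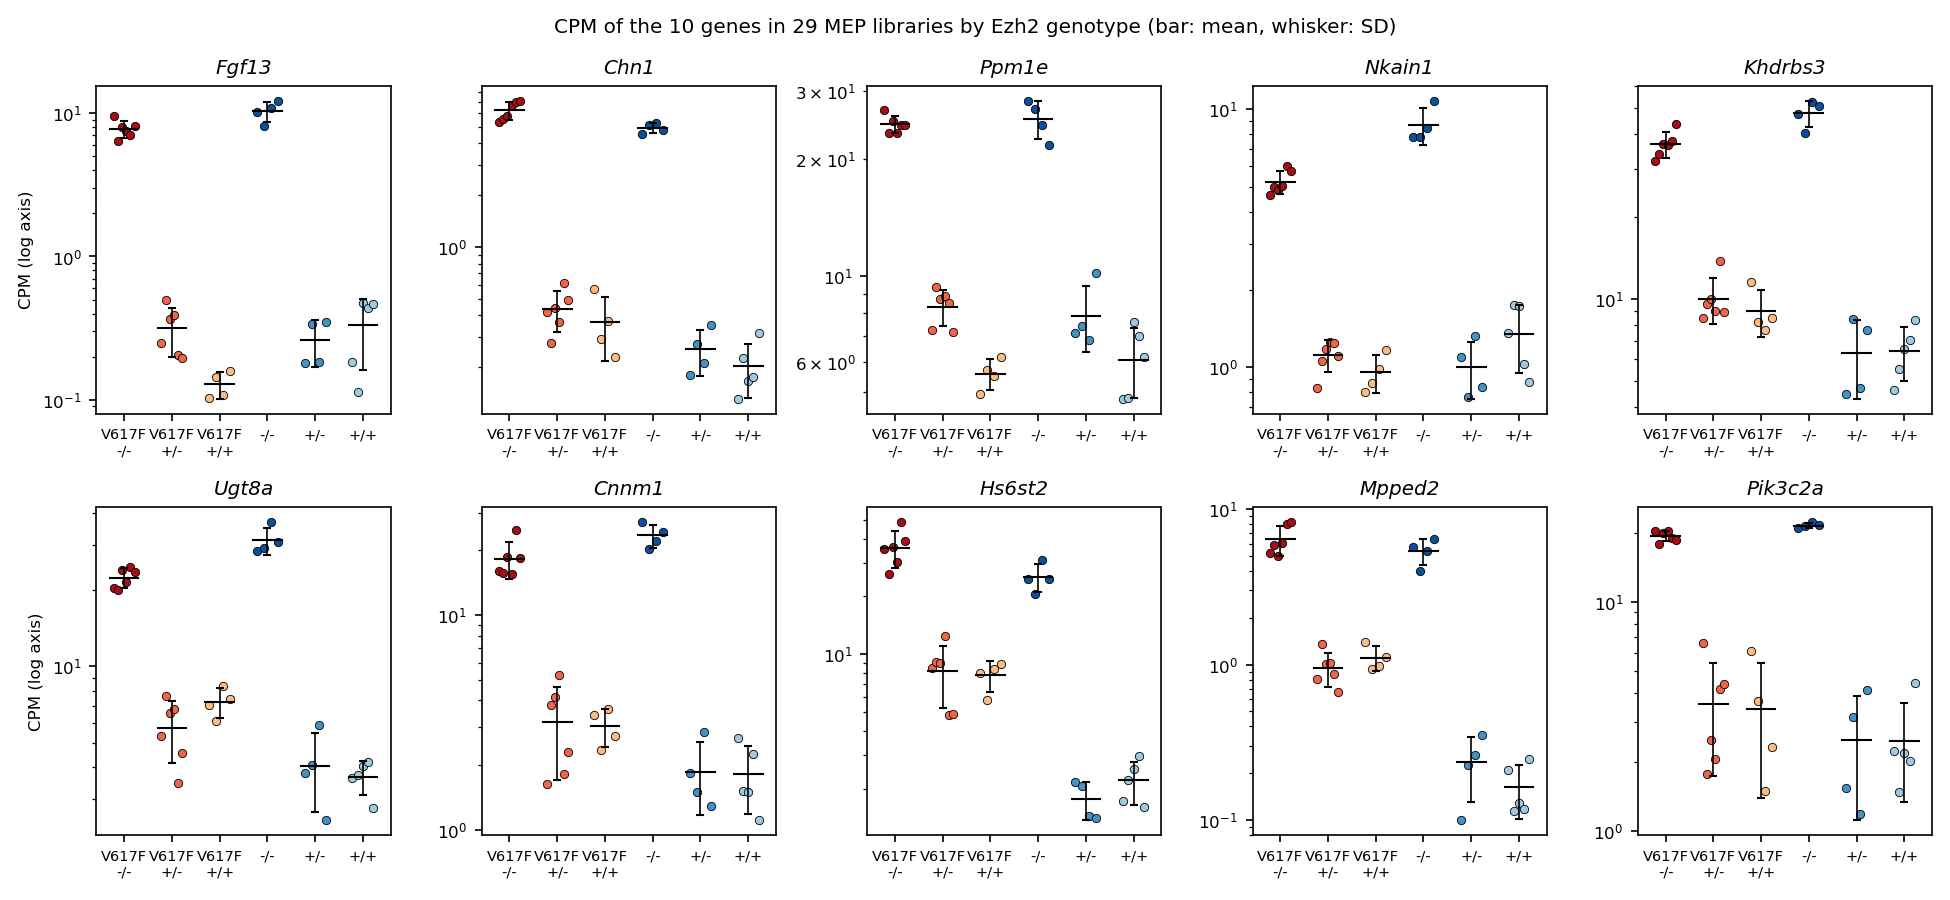
CPM of each gene (log y axes, which differ between panels) in the 29 libraries, by Ezh2 genotype with V617F (red and orange) and without (blue), where points are libraries, bars are means and whiskers are SD. In every panel the 10 Ezh2 -/- libraries lie above the 19 libraries that kept Ezh2, which for Mpped2 and Hs6st2 split by V617F.

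The members shared a pattern across groups, which their choice made likely. Over the 29 libraries, Pearson's r of log2 CPM between any 2 of the 10 genes ran from 0.79 to 0.98 with a median of 0.91 over 45 pairs, a description in which all pairs share the same libraries and genotypes. By the same measure, the genes outside the set most like its mean were Luzp1 (r = 0.985), Bmi1 (0.98), Ubtd2 (0.978), Prkar2a (0.977) and Fzd3 (0.977). Luzp1 also had the highest r to Chn1 (0.992), with 59.2 ± 5.31 CPM in V617F Ezh2 -/-, 17.1 ± 2.08 in V617F Ezh2 +/- and 15.6 ± 3.37 CPM in V617F Ezh2 +/+ libraries, and 57.98 ± 1.32, 12.1 ± 2.25 and 11.3 ± 1.81 CPM in the matching groups without V617F. Ano1 and Dcbld2 followed Hs6st2 most closely (r = 0.974 and 0.972), Lgr4 and Ptk2 followed Ugt8a (0.972 and 0.97), and Pcolce2 and Bmi1 followed Fgf13 (0.977 and 0.97). For Cnnm1 the nearest were Zdhhc2 and Lgr4 (r = 0.975 and 0.97), for Khdrbs3 Neto2 and Pkp4 (both 0.978), and for Nkain1 Tln2 and Bmi1 (0.965 and 0.96). Tex15 came second for Chn1 (0.977), Ubtd2 and Macrod2 led for Ppm1e (both 0.963), Dcbld2 and Pkp4 for Mpped2 (0.97 and 0.96), and Dock3 for Pik3c2a (0.977).

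The loss of 1 Ezh2 allele was compared next. The choice of genes did not use Ezh2 +/- libraries, but it used the Ezh2 +/+ libraries they are set against. The difference of mean CPM between Ezh2 +/- and Ezh2 +/+ was -10.0% (Ugt8a) to 14.3% (Ppm1e) of the difference between Ezh2 -/- and Ezh2 +/+ with V617F, and -4.6% (Nkain1) to 9.3% (Ppm1e) without it. By the quasi-likelihood test of edgeR, adjusted over 13928 genes by the method of Benjamini and Hochberg, 0 of the 10 were called higher or lower in either background, where 0.00718% of all genes were called with V617F and 0.0144% without it. At an unadjusted p under 0.05 there were 2 with V617F, Ppm1e and Fgf13, both higher, against 6.33% of all genes. Without V617F there were also 2, Ppm1e higher and Nkain1 lower (-0.48 ± 0.18), against 2.76% of all genes. DESeq2 called 1 of the 10 with V617F and 0 without it. The median log2 fold change of the 10 was 0.11 with V617F and 0.01 without it, against -0.013 and -0.001 over all tested genes.

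Ppm1e came nearest to a graded response. It measured 8.31 ± 0.897 CPM in V617F Ezh2 +/- (n = 6) against 5.59 ± 0.510 CPM in V617F Ezh2 +/+ libraries (n = 4), and every V617F Ezh2 +/- library was higher. Its log2 fold change was 0.49 ± 0.10 with V617F (edgeR adjusted p = 0.111, unadjusted 6.53e-05) and 0.41 ± 0.10 without it (adjusted p = 0.9999, unadjusted 0.000425). Neither passed the threshold, although with V617F the gene did so under DESeq2, with female libraries only and without V617F Ezh2 +/+ replicate 3 (adjusted p 0.00339 to 0.57 over 18 alternatives). Fgf13 had a log2 fold change of 1.14 ± 0.34 with V617F (edgeR adjusted p = 0.38), again with no overlap between libraries, and -0.27 ± 0.30 without V617F. Its V617F Ezh2 +/+ libraries held 22 counts in all. Such separation upward, seen in 2 of the 10 genes with V617F, occurred in 0.373% of all genes. Without V617F, the libraries of Ezh2 +/- and controls overlapped for all 10 genes, where 0.409% of all genes separated upward and 0.474% downward.

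The V617F mutation was then compared with its absence within each Ezh2 genotype. Ezh2 +/- is the only genotype here that the choice of genes did not use. In Ezh2 +/- MEPs, 4 of the 10 genes were higher with V617F (Hs6st2, Mpped2, Cnnm1 and Khdrbs3) and 0 were lower by edgeR or by DESeq2, where edgeR called 3.35% of all genes higher and 6.51% lower. At an unadjusted p under 0.05 there were 6 of 10, all higher, against 23.8% of all genes in either direction. Hs6st2 averaged 8.14 ± 2.92 CPM in V617F Ezh2 +/- (n = 6) and 1.77 ± 0.402 CPM in Ezh2 +/- without it (n = 4), a log2 fold change of 2.18 ± 0.27 (edgeR adjusted p = 1.53e-05). Mpped2 averaged 0.956 ± 0.238 CPM in V617F Ezh2 +/- and 0.235 ± 0.104 CPM in Ezh2 +/-, a log2 fold change of 1.96 ± 0.30 (adjusted p = 0.000117). These 2 calls held when any 1 library was left out, and the libraries of both genes, as of Khdrbs3, did not overlap (3 of 10 genes, against 2.78% of all genes). In a fit of these 10 libraries alone, Mpped2 no longer passed (adjusted p = 0.0846).

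Cnnm1 and Khdrbs3 were nearer the threshold in Ezh2 +/- MEPs, with log2 fold changes of 1.002 ± 0.30 (edgeR adjusted p = 0.0338) and 0.49 ± 0.16 (adjusted p = 0.0443). The Cnnm1 call was lost without any 1 of Ezh2 +/- replicates 1, 2 and 5 or V617F Ezh2 +/- replicates 3 and 4, with an adjusted p of 0.00659 to 0.532 over 18 alternatives. The Khdrbs3 call was lost without any 1 of Ezh2 +/- replicates 1, 4 and 5 or V617F Ezh2 +/- replicates 3 and 5, with an adjusted p of 0.0127 to 0.564 over 18 alternatives. Ugt8a (log2 fold change 0.62 ± 0.20) had an adjusted p of 0.0554, which fell under the threshold without Ezh2 +/- replicate 4 or V617F Ezh2 +/- replicate 5 or 6 (adjusted p 0.00927 to 0.666 over 18 alternatives). Chn1 (0.67 ± 0.27, adjusted p = 0.118) passed without V617F Ezh2 +/- replicate 2 or without the sex term (adjusted p 0.0395 to 0.669 over 18 alternatives). Markers of several cell types moved with V617F in the same libraries. Granulocyte markers summed to 351 to 1816 CPM in V617F Ezh2 +/- and 38.7 to 334 CPM in Ezh2 +/- libraries, and 12 of 15 rose. Of the tested megakaryocyte and platelet markers, whose sums are given above, 8 of 17 rose. T and NK cell markers summed to 27.98 to 91.8 CPM in V617F Ezh2 +/- and 76.3 to 222 CPM in Ezh2 +/- libraries, and 14 of 17 fell. Monocyte and dendritic markers summed to 66.8 to 207 CPM in V617F Ezh2 +/- and 115 to 402 CPM in Ezh2 +/- libraries, where 11 of 15 fell and 1 rose. Erythroid markers summed to 6446 to 11500 CPM in V617F Ezh2 +/- and 8730 to 11240 CPM in Ezh2 +/- libraries, where 7 of 18 fell and 0 rose. The part of these cells in the differences was not tested.

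In Ezh2 +/+ MEPs, 6 of the 10 genes were higher with V617F and 1 was lower, where 9.73% of all genes were called higher and 13.9% lower. These libraries entered the choice of genes, so the counts are not independent of it. Mpped2 averaged 1.11 ± 0.207 CPM in V617F Ezh2 +/+ (n = 4) and 0.163 ± 0.0616 CPM in controls (n = 5), a log2 fold change of 2.70 ± 0.29 (edgeR adjusted p = 9.53e-07). Hs6st2 averaged 7.78 ± 1.41 CPM in V617F Ezh2 +/+ and 2.21 ± 0.558 CPM in controls (1.82 ± 0.25, adjusted p = 2.05e-05). Ugt8a averaged 7.22 ± 0.947 CPM in V617F Ezh2 +/+ and 3.67 ± 0.555 CPM in controls (1.004 ± 0.19, adjusted p = 0.000593). For these 3 genes no V617F library overlapped a control, a separation that 5.23% of all genes showed.

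The other calls in Ezh2 +/+ MEPs were smaller. Cnnm1 (0.82 ± 0.28, edgeR adjusted p = 0.0367), Chn1 (0.78 ± 0.27, 0.0369) and Khdrbs3 (0.44 ± 0.15, 0.0383) were higher. Each was lost when single libraries were left out: control replicates 2, 3 and 5 for Cnnm1, 1, 3 and 4 for Chn1 and 1 to 4 for Khdrbs3, and V617F Ezh2 +/+ replicates 1 and 3 for all 3 genes. The adjusted p was 0.0149 to 0.125 over 17 alternatives for Cnnm1, 0.0125 to 0.248 over 17 alternatives for Chn1 and 0.0109 to 0.142 over 17 alternatives for Khdrbs3. Fgf13 was lower, at 0.129 ± 0.0274 CPM in V617F Ezh2 +/+ against 0.335 ± 0.173 CPM in controls (-1.39 ± 0.34, adjusted p = 0.00445), although the range of its V617F libraries overlapped that of the 2 male controls. This value rests on 22 counts in all over the 4 V617F Ezh2 +/+ libraries. The gene passed the filter on low counts only through libraries other than these, so it did not enter a fit of these 2 groups alone. Ppm1e (-0.15 ± 0.10), Nkain1 (-0.43 ± 0.18) and Pik3c2a (0.29 ± 0.34) did not pass, although Nkain1 did without V617F Ezh2 +/+ replicate 4 or control replicate 5 (adjusted p 0.0329 to 0.343 over 17 alternatives). Granulocyte markers summed to 676 to 1204 CPM in V617F Ezh2 +/+ and 50.3 to 332 CPM in control libraries, with 14 of 15 higher, and 13 of 17 T and NK cell markers and 11 of 15 monocyte and dendritic markers fell. Their part was not tested.

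In Ezh2 -/- MEPs, 0 of the 10 genes were higher with V617F by edgeR or by DESeq2 and 4 were lower by edgeR, where edgeR called 19.1% of all genes higher and 22.5% lower. At an unadjusted p under 0.05 there were 5 of 10 in either direction, against 51.5% of all genes. Nkain1 averaged 5.22 ± 0.534 CPM in V617F Ezh2 -/- (n = 6) and 8.71 ± 1.42 CPM in Ezh2 -/- (n = 4), a log2 fold change of -0.63 ± 0.16 (edgeR adjusted p = 0.00393). Khdrbs3 averaged 36.8 ± 3.99 CPM in V617F Ezh2 -/- and 47.9 ± 5.23 CPM in Ezh2 -/- (-0.50 ± 0.14, adjusted p = 0.0091). Its call was lost without the sex term or with female libraries only (adjusted p 0.00536 to 0.0605 over 18 alternatives). Fgf13 (-0.60 ± 0.23, adjusted p = 0.043) and Ugt8a (-0.44 ± 0.18, 0.0476) passed narrowly. The Fgf13 call was kept only when Ezh2 -/- replicate 2 or V617F Ezh2 -/- replicate 1 was the library left out, and the Ugt8a call only when it was Ezh2 -/- replicate 4 or V617F Ezh2 -/- replicate 5. The adjusted p was 0.0203 to 0.219 over 18 alternatives for Fgf13 and 0.00226 to 0.233 over 18 alternatives for Ugt8a. The libraries of Nkain1, Ugt8a and Pik3c2a (3 of 10 genes) lay wholly lower with V617F, as 18.8% of all genes did, and those of Chn1 (1 gene) wholly higher, as 19% did. All 17 tested megakaryocyte and platelet markers and all 15 granulocyte markers rose with V617F in these libraries. Of 18 erythroid markers 9 fell and 0 rose, and of 17 T and NK cell markers 7 fell and 1 rose. Erythroid markers summed to 5898 to 7555 CPM in V617F Ezh2 -/- and 9105 to 10430 CPM in Ezh2 -/- libraries. The part of these cells was not tested.

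The change of the V617F effect between Ezh2 genotypes is the difference of 2 comparisons that the choice of genes used, so it is given without a test. The log2 V617F effect in Ezh2 -/- minus that in Ezh2 +/+ was -2.50 ± 0.37 for Mpped2, -1.45 ± 0.26 for Ugt8a, -1.32 ± 0.33 for Hs6st2, -1.09 ± 0.38 for Cnnm1 and -0.94 ± 0.21 for Khdrbs3 (SE). It was -0.69 ± 0.45 for Pik3c2a, -0.51 ± 0.33 for Chn1, -0.21 ± 0.24 for Nkain1, 0.03 ± 0.14 for Ppm1e and 0.79 ± 0.41 for Fgf13. On the CPM scale the picture differed by gene. The gain in Ezh2 -/- over Ezh2 +/+ for Mpped2 was 5.28 ± 0.573 CPM with V617F and 5.23 ± 0.522 CPM without it (SE), and for Ppm1e it was 19.04 ± 0.581 CPM with V617F and 19.3 ± 1.54 CPM without it. For Hs6st2 it was 28.1 ± 3.23 CPM with V617F and 23.02 ± 2.13 CPM without it. For Ugt8a it was 15.1 ± 0.961 CPM with V617F and 27.6 ± 1.92 CPM without it, and for Khdrbs3 27.8 ± 1.85 CPM with V617F and 41.4 ± 2.69 CPM without it.

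**Figure D3:**
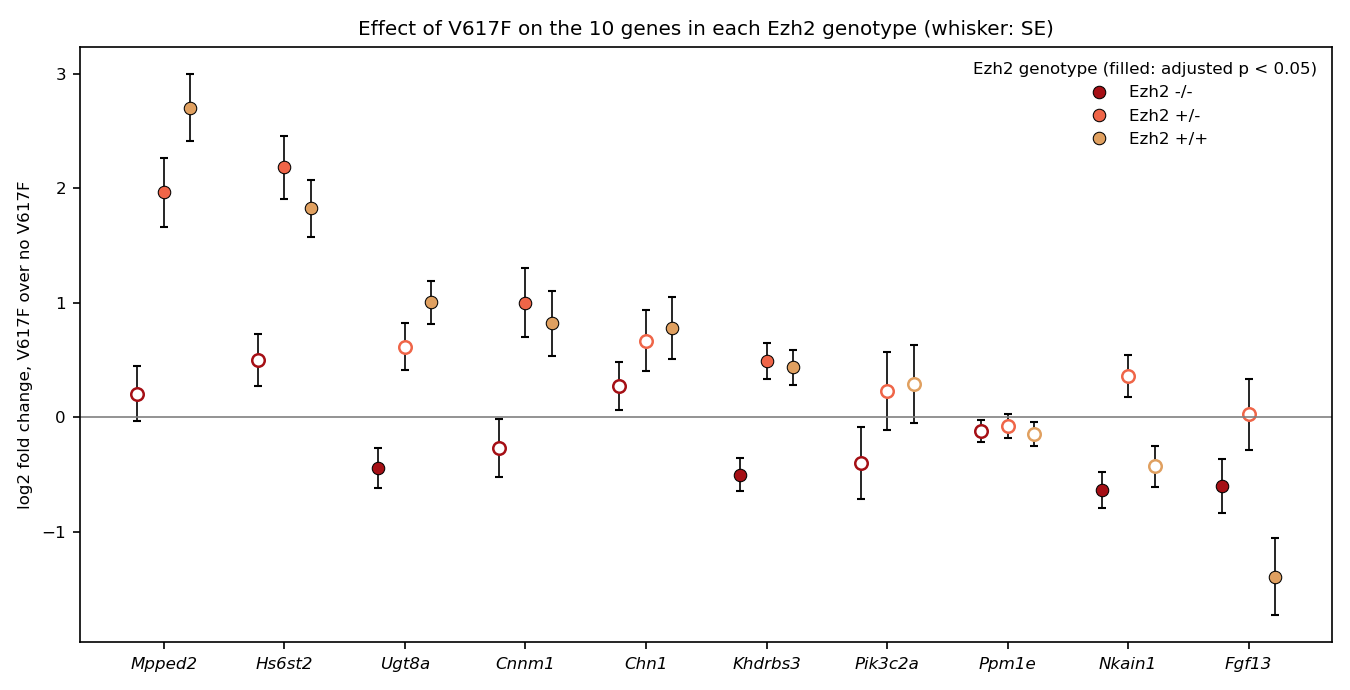
Log2 fold change of V617F over no V617F (y axis, whiskers SE) for each gene in Ezh2 -/-, Ezh2 +/- and Ezh2 +/+ MEPs, with filled points for adjusted p under 0.05. Mpped2 and Hs6st2 have the largest effects, 1.96 to 2.70 and 1.82 to 2.18 in the 2 genotypes that keep Ezh2, against 0.21 and 0.50 in Ezh2 -/-.

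The related genes of each member were counted in Ezh2 -/- against Ezh2 +/+, 105 family, pathway and PRC2 genes beside the 10. Here and for the neighbours below, rose and fell mean higher and lower in Ezh2 -/- than in Ezh2 +/+ of the same background. Of the 83 that were tested, 20 rose and 9 fell with V617F (24.1% and 10.8%), against 13% and 13.6% of all genes, and their median log2 fold change was 0.06, against -0.003 over all genes. Without V617F 11 rose and 7 fell (13.3% and 8.4%), against 11.5% and 12.2% of all genes, with a median of -0.01 against -0.011. The closest relatives of several members did not pass in either background. The FGF homologous factor Fgf11 measured 0.349 ± 0.0574 CPM in Ezh2 -/- and 0.126 ± 0.101 CPM in controls (1.38 ± 0.60, edgeR adjusted p = 0.0961). The median log2 fold change of the 2 tested genes of this family was -1.04 without V617F, so the other had the opposite sign there. With V617F the median was 0.62. The other chimaerin gene, Chn2, measured 1.99 ± 0.672 CPM in Ezh2 -/- and 2.82 ± 2.06 CPM in controls (-0.43 ± 0.48, 0.531). Its log2 fold change with V617F was 1.11. Nkain2 and Nkain4 were too low to test. The STAR genes Khdrbs1 and Qk, at 313 ± 8.49 and 227 ± 18.7 CPM in Ezh2 -/- and 323 ± 18.5 and 221 ± 12.7 CPM in controls, had log2 fold changes of -0.02 ± 0.07 and 0.05 ± 0.06. The MPPED family list has no other gene in the files.

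Of 14 tested PPM phosphatase genes beside Ppm1e, Ppm1f alone passed without V617F, and fell (-0.18 ± 0.05, edgeR adjusted p = 0.011), a call lost without any 1 of Ezh2 -/- replicates 3 and 4 (adjusted p 0.00351 to 0.138 over 17 alternatives). In V617F Ezh2 -/- against V617F Ezh2 +/+, Ppm1j (1.98 ± 0.59) and Pdp1 (0.29 ± 0.09) rose. Ilkap (-0.19 ± 0.06), Ppm1b (-0.20 ± 0.07) and Ppm1d (-0.11 ± 0.04) fell there. These were 2 and 3 of 14, against 13% and 13.6% of all genes. The calls were lost without V617F Ezh2 +/+ replicate 4 for Ppm1j, and without any 1 of V617F Ezh2 +/+ replicates 2, 3 and 4 for Pdp1, of V617F Ezh2 -/- replicates 2 and 4 or V617F Ezh2 +/+ replicates 2, 3 and 4 for Ilkap, of V617F Ezh2 -/- replicates 1, 2, 3, 4 and 5 or V617F Ezh2 +/+ replicates 2, 3 and 4 for Ppm1b and of V617F Ezh2 -/- replicates 1, 2, 3 and 4 or V617F Ezh2 +/+ replicates 2, 3 and 4 for Ppm1d. Of the 3 other CNNM genes, Cnnm4 (0.52 ± 0.16) and Cnnm3 (0.20 ± 0.07) were higher in V617F Ezh2 -/- than in V617F Ezh2 +/+. Without V617F, 0 passed in Ezh2 -/- against controls by edgeR. The Cnnm4 call was lost without any 1 of V617F Ezh2 +/+ replicates 2 and 4, and the Cnnm3 call without any 1 of V617F Ezh2 -/- replicates 1 and 2 or V617F Ezh2 +/+ replicates 1, 2 and 4. Among 12 galactolipid and sphingolipid genes beside Ugt8a, Kdsr, which reduces ketosphinganine, fell without V617F (-0.40 ± 0.09, 0.00248), as did the sulfatide-degrading Arsa (-0.20 ± 0.07, 0.0444), and the ceramide synthase gene Cers1 rose (2.08 ± 0.66, 0.0228). The Kdsr call held under each alternative. Those of Cers1 and Arsa were lost without any 1 of Ezh2 -/- replicates 1, 3 and 4 or control replicates 1, 2 and 5 (adjusted p 0.00745 to 0.168 over 17 alternatives for Cers1 and 0.00794 to 0.602 over 17 alternatives for Arsa). With V617F, the ceramide synthase genes Cers1 (1.78 ± 0.65) and Cers6 (1.60 ± 0.41) rose and Cers2 (-0.23 ± 0.05) fell, and of these the Cers1 call was lost without any 1 of V617F Ezh2 -/- replicates 2, 3 and 4 or V617F Ezh2 +/+ replicates 2, 3 and 4 (adjusted p 0.0182 to 0.156 over 18 alternatives).

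Heparan sulfate genes were read beside Hs6st2. Of 15 tested genes of its synthesis and editing, Glce, the epimerase that makes iduronate, rose to 34.9 ± 1.71 CPM in Ezh2 -/- against 20.2 ± 2.05 CPM in controls (0.78 ± 0.09, edgeR adjusted p = 2.82e-07). The 2-O-sulfotransferase gene Hs2st1 rose as well (0.39 ± 0.06, 1.84e-05), as did Extl3 (0.26 ± 0.08, 0.0208), while the heparanase gene Hpse fell (-1.93 ± 0.68, 0.0419). The nearest relative, Hs6st1, measured 149 ± 6.51 CPM in Ezh2 -/- and 126 ± 8.55 CPM in controls (0.27 ± 0.15, 0.181). Among 10 core protein genes, Sdc1 rose to 33.6 ± 3.71 CPM in Ezh2 -/- against 6.40 ± 1.47 CPM in controls (2.46 ± 0.18, 1.24e-10). Gpc4 (0.94 ± 0.15, 3.61e-05) and Agrn (0.36 ± 0.12, 0.0319) rose too, and Sdc2 fell (-0.99 ± 0.27, 0.00925). Without V617F, 3 of the 15 synthesis and editing genes thus rose and 1 fell, and 3 of the 10 core protein genes rose and 1 fell. Among all tested genes 11.5% rose and 12.2% fell.

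The calls of Glce, Hs2st1, Sdc1 and Gpc4 without V617F held when any 1 library was left out. That of Extl3 was lost without any 1 of Ezh2 -/- replicates 1 and 2 or control replicate 5 (adjusted p 0.00791 to 0.0898 over 17 alternatives), and that of Sdc2 without Ezh2 -/- replicate 3 (0.00188 to 0.0827 over 17 alternatives). The call of Hpse was lost without any 1 of Ezh2 -/- replicates 1, 2 and 3 or control replicates 1 and 5 (0.0183 to 0.27 over 17 alternatives), and that of Agrn without any 1 of Ezh2 -/- replicates 1 and 2 or control replicates 1, 2, 4 and 5 (0.011 to 0.133 over 17 alternatives). With V617F, Glce (0.56 ± 0.09), Hs2st1 (0.23 ± 0.06), Sdc1 (0.72 ± 0.17) and Agrn (0.67 ± 0.12) also passed by edgeR, whereas Gpc4 had 0.32 ± 0.15 (adjusted p = 0.102). In V617F Ezh2 -/- against V617F Ezh2 +/+, 4 of the 15 synthesis and editing genes and 3 of the 10 core protein genes rose. Of these lists 0 fell, where 13% of all genes rose and 13.6% fell. Sulf2 (1.72 ± 0.44), a sulfatase gene, and Sdc4 (2.005 ± 0.49) were not among those called without V617F.

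Of 12 other tested phosphoinositide 3-kinase genes, the class II gene Pik3c2b rose without V617F to 11.3 ± 1.30 CPM in Ezh2 -/- against 6.45 ± 0.835 CPM in controls (0.79 ± 0.17, edgeR adjusted p = 0.00155). With V617F it had a log2 fold change of 0.44 ± 0.17 (adjusted p = 0.055), which passed without V617F Ezh2 +/+ replicate 1 (0.00194 to 0.296 over 18 alternatives). The regulatory subunit gene Pik3r3 rose in both backgrounds (1.11 ± 0.15 with V617F and 1.43 ± 0.15 without, adjusted p = 7.78e-06 and 7.06e-08). Pik3cd and Pik3r5 fell without V617F (-0.46 ± 0.16 and -1.27 ± 0.46, adjusted p = 0.0446 and 0.0474). The Pik3r5 call was lost without any 1 of Ezh2 -/- replicates 1, 2 and 3 or control replicates 1 and 5 (0.02 to 0.22 over 17 alternatives), and the Pik3cd call without any 1 of these, control replicate 2 or Ezh2 -/- replicate 4 (0.025 to 0.251 over 17 alternatives). With V617F Pik3cd had the opposite sign (0.46 ± 0.16, adjusted p = 0.0371), a call lost without any 1 of V617F Ezh2 -/- replicates 1, 2, 3 and 4 or V617F Ezh2 +/+ replicates 2, 3 and 4 (0.00869 to 0.148 over 18 alternatives). With V617F Pik3r1 also rose (0.39 ± 0.09) and Pik3r2 fell (-0.45 ± 0.15), a call lost without any 1 of V617F Ezh2 -/- replicates 2, 3 and 4 or V617F Ezh2 +/+ replicates 2, 3 and 4.

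Of the 11 PRC2 genes beside Ezh2, 4 rose and 4 fell with V617F, and 2 rose and 0 fell without it by edgeR. The background was 13% higher and 13.6% lower among all genes with V617F, and 11.5% and 12.2% without it. Epop and Phf19, both accessory subunits, rose in both backgrounds (1.74 ± 0.17 and 0.46 ± 0.10 with V617F, 1.55 ± 0.16 and 0.65 ± 0.11 without). With V617F the accessory subunit gene Jarid2 also rose (0.37 ± 0.08). The core subunit gene Eed (-0.37 ± 0.08), the accessory Mtf2 (-0.21 ± 0.05) and the histone-binding Rbbp4 (-0.14 ± 0.04) fell with V617F. The calls of Jarid2 and Eed held when any 1 library was left out, that of Mtf2 was lost without V617F Ezh2 +/+ replicate 2, and that of Rbbp4 without any 1 of V617F Ezh2 -/- replicates 2, 3 and 4 or V617F Ezh2 +/+ replicates 2 and 4.

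The nearest tested gene on either side was examined for each member, 20 neighbours in all, by order in the RefSeq annotation. Genes that were not tested were passed over, so a neighbour need not be adjacent. Trim37 overlaps Ppm1e, and for the others the gap ran from 2.5 kb (Got1) to 3487.8 kb (Trappc9). For Gpc4 it was 369.3 kb, for Hps1 659.1 kb and for Nucb2 60.9 kb. With V617F 3 rose (Wipf1, Zfat and Nucb2), 1 fell (Snrnp40) and 16 did not pass, with a median log2 fold change of 0.02, where 13% of all genes rose and 13.6% fell. Without V617F 4 rose (Got1, Gpc4, Nucb2 and Dnajc24), 2 fell (Hps1 among them) and 14 did not pass, with a median of 0.125, where 11.5% of all genes rose and 12.2% fell. Nucb2, next to Pik3c2a, passed in both and measured 6.54 ± 1.13 CPM in V617F Ezh2 -/- against 1.98 ± 1.02 CPM in V617F Ezh2 +/+ (1.59 ± 0.32, edgeR adjusted p = 0.000948), and 4.83 ± 0.805 CPM in Ezh2 -/- against 1.14 ± 0.526 CPM in controls (2.01 ± 0.32, 4.63e-05). On its other side Pik3c2a lies next to the ribosomal protein gene Rps13, which measured 618 ± 33.3 CPM in Ezh2 -/- and 565 ± 48.99 CPM in controls (0.12 ± 0.05, 0.111).

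Got1, an aspartate aminotransferase gene next to Cnnm1, rose without V617F to 54.2 ± 5.30 CPM in Ezh2 -/- against 29.2 ± 1.77 CPM in controls (0.89 ± 0.12, edgeR adjusted p = 2.33e-06). Gpc4, given above among the heparan sulfate core proteins, is also the neighbour of Hs6st2. Wipf1, next to Chn1, was higher in V617F Ezh2 -/- than in V617F Ezh2 +/+ (0.69 ± 0.13, edgeR adjusted p = 0.000517). Among the smaller calls without V617F, calls were lost without any 1 of Ezh2 -/- replicates 3 and 4 or control replicate 1 for Dnajc24 (0.30 ± 0.09, adjusted p 0.00564 to 0.193 over 17 alternatives) and of Ezh2 -/- replicates 3 and 4 or control replicate 5 for Hps1 (-0.19 ± 0.06, 0.00399 to 0.144 over 17 alternatives). Those with V617F were lost without any 1 of V617F Ezh2 -/- replicate 6 or V617F Ezh2 +/+ replicates 1 and 3 for Zfat (0.22 ± 0.07, 0.0102 to 0.122 over 18 alternatives) and of V617F Ezh2 -/- replicates 2 and 4 or V617F Ezh2 +/+ replicates 2, 3 and 4 for Snrnp40 (-0.23 ± 0.07, 0.0117 to 0.0969 over 18 alternatives).

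**Figure D4:**
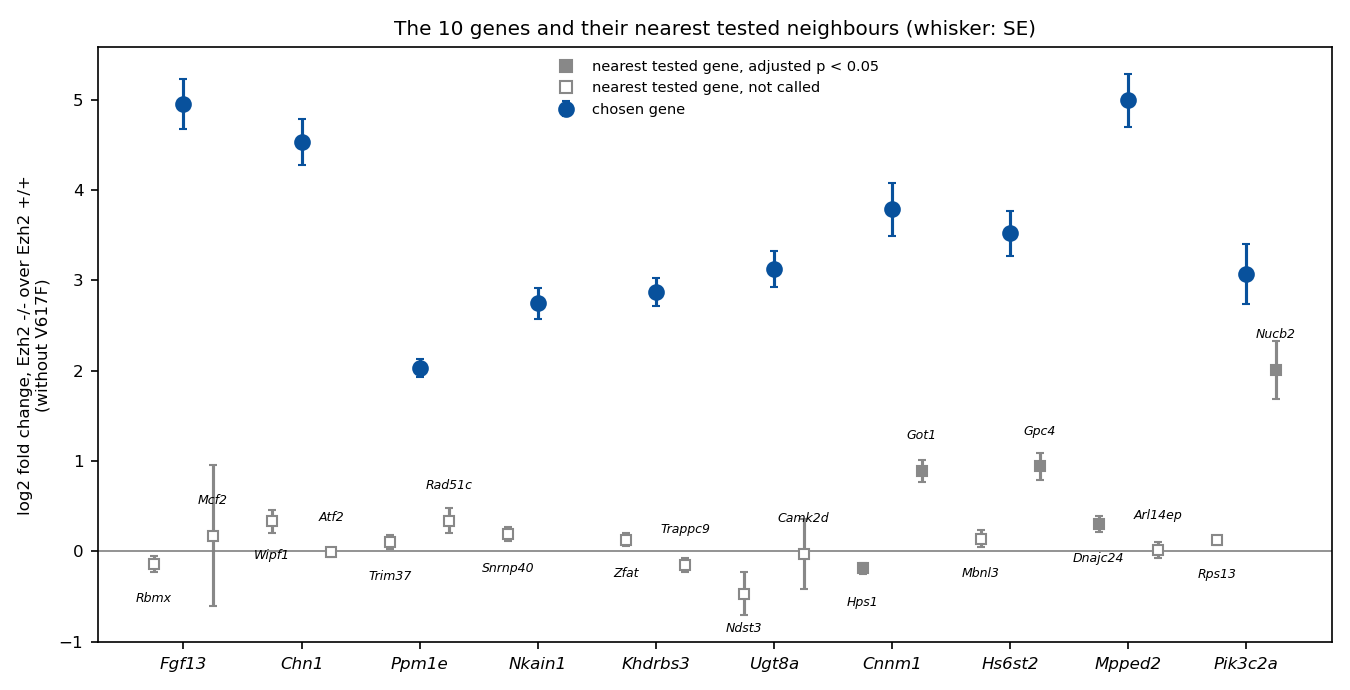
Log2 fold change of Ezh2 -/- over Ezh2 +/+ without V617F (y axis, whiskers SE) for each chosen gene (circles) and 19 of the 20 nearest tested genes (squares, filled for adjusted p under 0.05). The chosen genes lie between 2.03 and 4.99, and of the neighbours drawn only Nucb2, at 2.01, exceeds 1.

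Markers of cells in which these genes are usually found were read beside them. Defining neuronal and glial genes were at or near 0 in all groups: over the libraries of a group, Rbfox3 had 0 to 3 counts, Snap25 0 to 9, Syt1 1 to 17 and Sox10 0 to 1. Of the 24 neuronal markers in the files 9 were tested. In V617F Ezh2 -/- against V617F Ezh2 +/+, 4 rose (Nefh, Syp and Elavl4 among them) and 0 fell by edgeR. Their median log2 fold change was 0.74, where 13% of all genes rose. In Ezh2 -/- against controls 1 rose (Nefh) and 2 fell (Eno2 among them), with a median of 0.23, where 11.5% of all genes rose and 12.2% fell. Of the 9, 7 were also higher with V617F than without it in Ezh2 -/- MEPs, where 19.1% of all genes were. The summed level was 116 to 145 CPM in V617F Ezh2 -/- and 75.7 to 87.5 CPM in V617F Ezh2 +/+ libraries. Without V617F it was 131 to 143 CPM in Ezh2 -/- and 68.8 to 88.4 CPM in control libraries, of which Nefh, a neurofilament gene singled out after its values were seen, made up 128 ± 4.96 and 67.5 ± 8.87 CPM. The other 23 summed to 6.25 to 7.38 CPM in Ezh2 -/- and 6.46 to 14.6 CPM in controls. With V617F these 23 summed to 14.2 to 23.3 (median 17.3) CPM in Ezh2 -/- and 8.36 to 22.4 (median 11.2) CPM in Ezh2 +/+ libraries. Of 20 glial and myelin markers 7 were tested, of which 2 rose and 1 fell in each background. The 16 muscle markers summed to 1.26 to 2.71 CPM in Ezh2 -/- and 1.88 to 3.75 CPM in control libraries. Whether cells of these types had a part in the results was not tested. Summed B cell markers were 9.03 to 92.7 CPM in V617F Ezh2 -/- against 4.31 to 11.4 CPM in V617F Ezh2 +/+ libraries, with 11 of 14 markers higher, against 13% of all genes, and 10.3 to 55.1 against 5.10 to 30.02 CPM in Ezh2 -/- and control libraries without V617F, with 1 of 14 (Rag2) higher. Their part was not tested either.

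**Figure D5:**
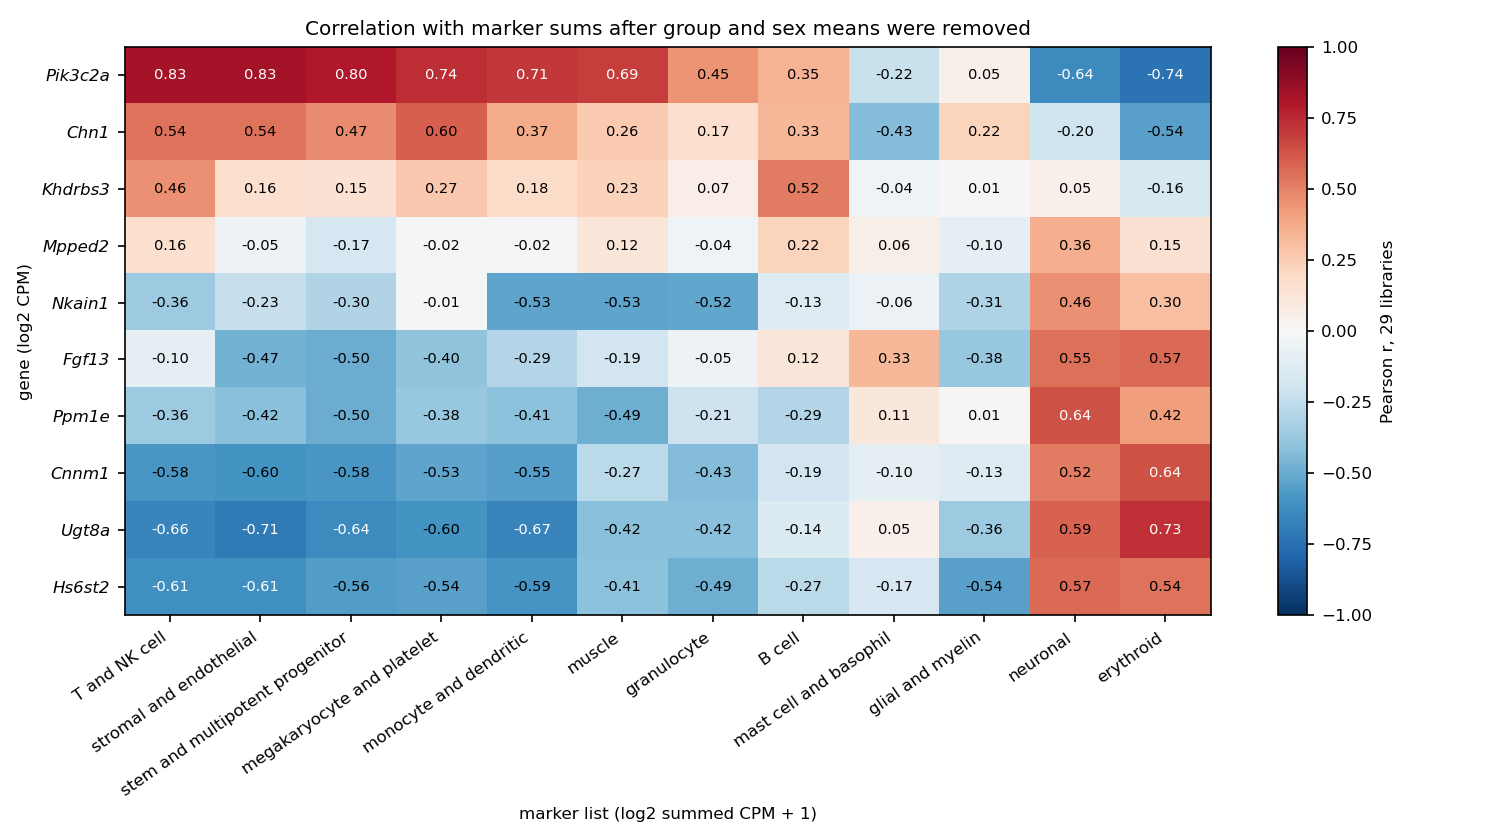
Pearson's r (colour and printed value) between log2 CPM of each gene (rows) and the log2 summed level of each marker list (columns) over 29 libraries, after the means of group and sex were removed. Pik3c2a and Ugt8a differ in sign for most lists, at 0.83 and -0.71 with stromal and endothelial markers and -0.74 and 0.73 with erythroid markers.

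Within groups the members varied in different directions. After the means of group and sex were removed, Ugt8a correlated over the 29 libraries with Cnnm1 (r = 0.71) and Hs6st2 (0.70), and Chn1 with Khdrbs3 (0.69), while Ugt8a and Pik3c2a were opposed (-0.66). The residual level of Pik3c2a followed the summed markers of T and NK cells (0.83), stromal and endothelial cells (0.83) and stem and multipotent progenitors (0.80), and ran against erythroid markers (-0.74). Ugt8a, Cnnm1 and Hs6st2 ran with erythroid markers (0.73, 0.64 and 0.54). These values describe libraries that share composition and depth. In the libraries that kept Ezh2, Pik3c2a was highest in V617F Ezh2 +/- replicate 1 (6.60 CPM), V617F Ezh2 +/+ replicate 1 (6.12 CPM) and control replicate 5 (4.43 CPM), still below every Ezh2 -/- library.

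The sexes were unevenly spread over the groups. By a term for the labelled sex in the same model, 0 of the 10 genes differed between male and female libraries, where 0.0503% of all genes were called, and 5 of the 10 had an unadjusted p under 0.05, against 21.6% of all genes. This comparison was added after values were seen. The labels matched the expression of 4 Y-linked genes in all 29 libraries.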

How the data were processed

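RNA sequencing of 29 MEP libraries was deposited by the authors as raw read counts per Entrez gene with a gene length, 1 file a library. Reads were aligned with STAR to mm9, per the submitters' processing notes; no source used here names the counting program, annotation or strand setting. All further values were computed here from those counts: 18772 of 18834 gene identifiers were named from a RefSeq table of GRCm38.p6. Its coordinates serve only names, gene order, distances to neighbours and promoter windows. Genes passed filterByExpr (minimum count 10, minimum total 15), library sizes were scaled by TMM (factors 0.95 to 1.093), and edgeR 4.0.16 in R 4.3.3 fitted 6 groups and sex over all libraries (quasi-likelihood, 22 residual degrees of freedom), with Benjamini-Hochberg adjusted p under 0.05 as a call. Log2 CPM used a prior count of 2, RPKM the deposited length, and the floor 3 counts. The script was tested on simulated data.

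The members and the gene lists were chosen with earlier results of these data known. Text names the members, Ezh2, up to 3 genes per direction in a list, the nearest tested neighbours, the genes most like each member, and markers beside a result; Nefh, the sex term and genes named from V617F list counts were chosen after values were seen. Alternatives were DESeq2 1.42.0, RLE size factors, no filter, no sex term, only the groups compared, female libraries, a replicate block, each library left out, raw library sizes and 3 libraries left out together. No 2 replicates matched within sampling noise (lowest chi-square per degree of freedom 4.71). Same-numbered libraries deviated together in every pair for V617F Ezh2 +/- and V617F Ezh2 +/+ (4 pairs, r 0.158 to 0.661). They did so more weakly for V617F Ezh2 +/+ and controls (4 pairs, r 0.037 to 0.461). The main test did not model pairs. The replicate block, an alternative fitted over all groups, changed no call of a chosen gene between V617F Ezh2 +/- and V617F Ezh2 +/+. Libraries give no interval finer than their counts allow, and floors cover counting error only. Some genes that these rules name are not reported here.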

Additional observations from a re-analysis of the deposited data

Results flagged for a closer look

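Khdrbs3 in V617F Ezh2 +/- libraries had 1 value far from the others, 13.8 CPM in replicate 5 against 8.51 to 9.99 CPM in the other 5. Dixon's test was applied to 60 sets of 4 to 6 libraries (10 genes in 6 groups) and pointed to this 1 alone, where chance would give about 5% of sets. The Khdrbs3 call for V617F in Ezh2 +/- was lost without this library (adjusted p 0.0127 to 0.564 over 18 alternatives).

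Ugt8a moved in opposite directions with V617F by Ezh2 genotype. Every V617F Ezh2 -/- library (19.9 to 24.6 CPM) was below every Ezh2 -/- library (28.4 to 36.8 CPM), and every V617F Ezh2 +/+ library (6.07 to 8.36 CPM) was above every control (2.76 to 4.18 CPM). The log2 V617F effect in Ezh2 -/- minus that in Ezh2 +/+ was -1.45, and this difference was not tested.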

How the results depend on the processing

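Counting error limits the lowest values: Fgf13 had 22 counts in all over the 4 V617F Ezh2 +/+ libraries, and Mpped2 had 39 over the 5 controls. The V617F Ezh2 +/- and Ezh2 -/- groups hold no male, so for these the sex term rests on other groups. The untested change of the V617F effect for Ppm1e (0.03) ran from -0.055 to 0.112 without 1 library, and was below 0 without control replicate 3, Ezh2 -/- replicate 3 or V617F Ezh2 +/+ replicate 1. CPM on raw library sizes moved no group mean of the 10 genes beyond its spread (60 of 60). Causes of the changes below were not tested.

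Of 171 log2 fold changes followed, 21 changed sign under at least 1 alternative, of which 0 were called by the main test or under that alternative. For Ezh2 -/- against Ezh2 +/+ with V617F, Rps13 (-0.00023) had 0.0059 with RLE size factors and by DESeq2, 0.00019 with no filter, 0.022 without the sex term, 0.0088 with only the groups compared, 0.0054 with females only, 0.011 without the 3 libraries and -0.027 to 0.046 without 1 library. Extl3 (-0.023) had 0.0102 with only the groups compared, 0.0069 with females only, 0.014 under the replicate block and -0.078 to 0.036 without 1 library. Sdc2 (0.018) had -0.053 with only the groups compared, -0.056 with females only and -0.13 to 0.41 without 1 library. Hps1 (-0.013) had 0.013 with only the groups compared, 0.0096 with females only, 0.0033 without the 3 libraries and -0.039 to 0.025 without 1 library. For Ezh2 -/- against Ezh2 +/+ without V617F, Atf2 (-0.0068) had 0.0102 with only the groups compared, 0.0038 with females only and -0.035 to 0.026 without 1 library. Mcf2 (0.17) had -0.51 with females only and -0.41 to 1.87 without 1 library. Camk2d (-0.027) had 0.0799 under the replicate block, 0.22 without the 3 libraries and -0.49 to 0.18 without 1 library. Arl14ep (0.014) had -0.033 under the replicate block, -0.014 without the 3 libraries and -0.015 to 0.034 without 1 library. For Ezh2 +/- against Ezh2 +/+ with V617F, Pik3c2a (-0.053) had 0.071 without the sex term, 0.025 without the 3 libraries and -0.32 to 0.33 without 1 library. Khdrbs3 (0.056) had -0.021 under the replicate block and -0.059 to 0.17 without 1 library. Hs6st2 (0.058) had -0.10 to 0.17 without 1 library. Cnnm1 (0.17) had -0.034 to 0.30 without 1 library. For Ezh2 +/- against Ezh2 +/+ without V617F, Khdrbs3 (0.0021) had -0.00056 with RLE size factors and by DESeq2, -0.0021 with no filter, -0.0205 without the sex term, -0.25 without the 3 libraries and -0.10 to 0.083 without 1 library. Cnnm1 (-0.012) had 0.047 without the sex term, 0.023 under the replicate block, 0.15 without the 3 libraries and -0.20 to 0.13 without 1 library. Ugt8a (0.10) had -0.16 with females only and -0.079 to 0.29 without 1 library. Pik3c2a (0.0084) had -0.0295 under the replicate block, -0.0053 by DESeq2, -0.31 without the 3 libraries and -0.20 to 0.23 without 1 library. For V617F over no V617F in Ezh2 +/-, Ppm1e (-0.073) had 0.076 without the sex term and -0.17 to 0.042 without 1 library. Fgf13 (0.026) had -0.12 with only the groups compared, -0.10 with females only, -0.051 under the replicate block and -0.11 to 0.13 without 1 library. Pik3c2a (0.23) had -0.022 with only the groups compared, -0.00902 with females only and -0.034 to 0.48 without 1 library. For V617F over no V617F in Ezh2 +/+, Pik3c2a (0.29) had -0.059 to 0.55 without 1 library.

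Ezh2 -/- against Ezh2 +/+ without V617F called 3307 genes, and 1681 with female libraries only; leaving out 1 library gave 2096 to 3595. Of the family genes 7 fell, against 3 with no filter, 1 with females only, 2 without 3 libraries (control replicate 5, Ezh2 +/- replicates 2 and 5, chosen after seeing the data) and 1 to 9 without 1 library; 11 rose, against 8 to 12. With V617F 3709 genes were called, 2268 with females only and 1954 to 5151 without 1 library; 9 family genes fell, against 5 with only the groups compared, 3 with females only and 2 to 12 without 1 library, and 20 rose, against 12 to 26.

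Ezh2 +/- against Ezh2 +/+ without V617F called 2 genes, 1 with only the groups compared, under the replicate block or without the 3 libraries, 0 with females only, 4 by DESeq2 and 1 to 2 without 1 library. With V617F it called 1 gene, 2 with only the groups compared, 20 with females only, 36 by DESeq2 and 1 to 37 without 1 library. Of the 10 genes 0 were higher, against 1 (Ppm1e) with females only, by DESeq2 and without V617F Ezh2 +/+ replicate 3.

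V617F in Ezh2 +/+ called 3288 genes, 1875 with females only and 2518 to 3279 without 1 library. Of the 10 genes 6 were higher, against 3 with only the groups compared or females only and 3 to 6 without 1 library; 1 was lower, against 0 with only the groups compared, where Fgf13 did not enter the fit, 2 without the 3 libraries and 1 to 2 without 1 library. V617F in Ezh2 +/- called 1374 genes, 2170 without the sex term, 313 with only the groups compared, 94 without the 3 libraries and 706 to 1893 without 1 library. Of the 10, 4 were higher, against 1 with only the groups compared and 2 to 5 without 1 library. V617F in Ezh2 -/- called 5795 genes, and 3197 to 6112 without 1 library; 4 of the 10 were lower, against 2 with RLE size factors, no filter or no sex term, 1 with females only and 2 to 3 without 1 library, and 0 were higher, against 2 with only the groups compared.

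In the comparisons other than V617F Ezh2 +/- against V617F Ezh2 +/+, the lowest r of same-numbered libraries was -0.435 to 0.037. There the replicate block left 2 of the 10 genes lower and 1 higher with V617F in Ezh2 -/-, and removed the Cnnm1 calls in Ezh2 +/- and Ezh2 +/+. The change of the V617F effect between Ezh2 -/- and Ezh2 +/+ was called for 2663 genes, 1623 under the replicate block, 128 with females only, 1199 without the 3 libraries and 297 to 4633 without 1 library.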
